A study of Homo sapiens with 6 samples.

Results

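The genes described here encode 10 proteoglycan core proteins: the 4 syndecans SDC1, SDC2, SDC3 and SDC4, the glypicans GPC1, GPC4 and GPC6, and the secreted proteins agrin (AGRN), perlecan (HSPG2) and versican (VCAN). They were taken by name from the gene tables, which hold 21463 genes, and all 10 were found. All 10 also passed the filter on low counts, together with 13541 genes in all. Messenger RNA was sequenced from 3 EGFR-mutant lines of human non-small cell lung cancer, with 1 resistant and 1 parental library for each. The resistant lines were HCC827 and PC9 cells (EGFR E19Del in both) selected with gefitinib, an EGFR kinase inhibitor that binds reversibly, and H1975 cells (EGFR L858R/T790M) selected with osimertinib, which binds EGFR covalently and is active against T790M. Selection ran, per the labels, for 90 days at rising drug concentrations, while the parental lines were untreated. Whether a resistant line is a single clone or a mixed population, and whether drug was present at harvest, is not given in the sources used here.

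A proteoglycan is a core protein that carries long sulfated sugar chains. Syndecans span the membrane and glypicans are held on its outer face by a lipid anchor. Both carry heparan sulfate, which binds growth factors of the FGF, HGF, Wnt and EGF families and helps present them to their receptors. Agrin and perlecan bear heparan sulfate in the basement membrane, and versican bears chondroitin sulfate in a matrix rich in hyaluronan. In epithelial tissue SDC1 is the usual syndecan, while versican is more typical of stroma.

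Each library held 21222102 to 29366085 exon reads. Levels are given as CPM (counts per 1000000 exon reads, scaled by TMM factors) for 1 gene across libraries, and as TPM, which is per length, where genes are compared with each other. A library with no read of a gene allows a level of up to 0.0983 to 0.145 CPM, taken as 3 reads; such limits, like the intervals, cover only counting error. Differences within a line have no replicate check, since each state of a line is 1 library. Of 8 lung epithelial markers, 8 had at least 10 CPM in both HCC827 libraries, 7 in both PC9 libraries, and 5 in resistant and 7 in parental H1975. Leukocyte markers summed to at most 12.4 CPM over 6 genes and endothelial markers to at most 20.1 CPM over 6 genes in any library. The 9 fibroblast markers summed to 25.5 CPM in resistant and 22.03 CPM in parental HCC827, 18.9 and 15.04 CPM in resistant and parental PC9, and 220.3 and 92.7 CPM in resistant and parental H1975, where PDGFRA had no read and COL1A1 and COL1A2 gave most of the sum.

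The stretches of DNA around the start sites of 5 of the genes are shown because 4 of them (GPC4, GPC6, VCAN and SDC4) were higher together in the resistant HCC827 library and the fifth, SDC1, was not. Each runs from 250 bases before the start to 50 after it, 5′ to 3′ on the strand of the gene, from RefSeq (GRCh38.p14); capitals mark CG pairs, the sites of DNA methylation.
GPC4 (chrX:133415440-133415739, minus strand): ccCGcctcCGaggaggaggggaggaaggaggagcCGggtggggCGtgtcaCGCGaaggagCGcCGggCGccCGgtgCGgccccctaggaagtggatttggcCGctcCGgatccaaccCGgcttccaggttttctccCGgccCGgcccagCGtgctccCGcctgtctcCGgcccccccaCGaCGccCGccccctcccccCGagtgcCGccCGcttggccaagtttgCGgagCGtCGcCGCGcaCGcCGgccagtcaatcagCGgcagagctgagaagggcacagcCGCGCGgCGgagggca
GPC6 (chr13:93226557-93226856, plus strand): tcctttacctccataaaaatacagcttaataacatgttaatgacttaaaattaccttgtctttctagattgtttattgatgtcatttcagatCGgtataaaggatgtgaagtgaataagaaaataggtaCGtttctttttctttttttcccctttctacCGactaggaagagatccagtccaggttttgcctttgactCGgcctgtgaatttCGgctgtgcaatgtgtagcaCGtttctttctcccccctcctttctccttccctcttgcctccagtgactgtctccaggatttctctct
VCAN (chr5:83471494-83471793, plus strand): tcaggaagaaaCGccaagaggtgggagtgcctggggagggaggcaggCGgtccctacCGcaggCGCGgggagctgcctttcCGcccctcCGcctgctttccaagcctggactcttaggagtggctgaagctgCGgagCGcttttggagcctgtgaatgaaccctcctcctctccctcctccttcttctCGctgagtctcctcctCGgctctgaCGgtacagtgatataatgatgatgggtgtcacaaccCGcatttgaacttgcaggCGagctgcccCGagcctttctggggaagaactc
SDC4 (chr20:45348375-45348674, minus strand): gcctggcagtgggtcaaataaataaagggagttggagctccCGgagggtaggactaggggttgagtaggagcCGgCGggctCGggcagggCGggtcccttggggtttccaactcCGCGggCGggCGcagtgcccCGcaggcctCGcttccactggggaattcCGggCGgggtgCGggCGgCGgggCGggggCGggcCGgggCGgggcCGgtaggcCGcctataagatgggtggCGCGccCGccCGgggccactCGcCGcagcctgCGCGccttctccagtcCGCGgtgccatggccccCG
SDC1 (chr2:20225426-20225725, minus strand): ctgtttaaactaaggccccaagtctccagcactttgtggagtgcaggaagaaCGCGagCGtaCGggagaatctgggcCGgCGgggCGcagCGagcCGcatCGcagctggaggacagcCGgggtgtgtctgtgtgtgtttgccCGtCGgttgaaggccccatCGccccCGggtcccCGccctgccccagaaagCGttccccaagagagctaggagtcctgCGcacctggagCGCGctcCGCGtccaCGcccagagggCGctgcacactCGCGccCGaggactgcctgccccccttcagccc

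The windows differ in their content of CG pairs. The GPC4 window holds 37, more than 88.7% of the 35116 RefSeq windows of this length. The SDC4 window holds 33 and the SDC1 window 27. The VCAN window holds 15, close to the median of 14, and the GPC6 window holds 6. Of the 8 members with a window in RefSeq, the other 3 (HSPG2, GPC1 and SDC3) hold 44 to 46. For SDC1, RefSeq gives 2 windows, and the one nearest to the gene's start in the files is shown. The VCAN window begins at 83471494, after the gene's start in the files at 83471465, and so does not hold that start. The GC box GGGCGG, counted on both strands, matched 8 times in SDC4, 2 times in GPC4, once in SDC1 and VCAN and at no place in GPC6; 45.0% of all windows hold at least 1. GPC6 alone among the 5 shown holds the letters TATAAA of the TATA box, found in 11.5% of windows. In GPC6 they lie at bases 96 to 101, well before the start, which follows base 250. SDC1 holds the E-box CACCTG, bound by SNAI and ZEB repressors, at bases 222 to 227 (20.6% of windows). SDC3, whose window is not shown, holds it too, at bases 51 to 56. SDC4 holds a match to the NF-kB consensus at bases 154 to 163 (11.3% of windows), which overlaps no GC box. The AP-1 motif TGANTCA (7.7% of windows) and the TEAD motif GGAATG (14% of them) matched in none of the 8. All motifs were read on both strands. These are letter matches; binding and methylation were not measured here.

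By TPM, SDC4 and SDC1 were the most abundant syndecans in every library. SDC4 (ENSG00000124145, hg38 chromosome 20, 45325288 to 45348424), a widely expressed syndecan of focal adhesions, had 1168 CPM in resistant and 376 CPM in parental HCC827. It had 174 CPM in resistant and 205 CPM in parental PC9, and 157 CPM in resistant and 298 CPM in parental H1975. The resistant library was thus 3.10-fold higher in HCC827 (95% counting interval 3.04 to 3.17), 1.18-fold lower in PC9 (1.13 to 1.23), and 1.90-fold lower in H1975 (1.83 to 1.97). In bulk libraries such as these, fewer cells with a transcript and less of it per cell cannot be told apart. SDC1 (ENSG00000115884, hg38 chromosome 2, 20200797 to 20225433), the epithelial syndecan, had 175 CPM in resistant and 186 CPM in parental HCC827. It had 498 CPM in resistant and 374 CPM in parental PC9. In H1975 it had 36.1 CPM in the resistant library, against 230 CPM in the parental one, a 6.37-fold lower level (interval 5.97 to 6.81). In resistant H1975 it was lower than in the other 5 libraries, which lay between 175 and 498 CPM.

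The low SDC1 level of resistant H1975 stood beside lower epithelial markers, whereas in HCC827 the resistant library had lower epithelial markers and SDC1 only 1.06-fold lower. In HCC827, 6 of the 8 markers with at least 10 CPM were at least 2-fold lower in the resistant library, and in H1975 4 of 7 were; in PC9 0 of 7 were. The summed level of the 8 markers was 5459 CPM in resistant and 13950 CPM in parental HCC827, 7769 and 8880 CPM in resistant and parental PC9, and 1748 and 2819 CPM in resistant and parental H1975. The adhesion molecule EPCAM differed by −5.23 (log2) in HCC827 and −4.24 in H1975, beside SDC1 at −0.09 in HCC827 and −2.64 in H1975. The part of epithelial state in the SDC1 difference was not tested.

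SDC3 and SDC2 had lower levels per length. SDC3 (ENSG00000162512, hg38 chromosome 1, 30869467 to 30908761), known best from neural tissue, had 138 CPM in resistant and 56.0 CPM in parental HCC827, a 2.45-fold difference (interval 2.31 to 2.61). It had 54.5 CPM in resistant and 44.8 CPM in parental PC9, and 54.1 CPM in resistant and 70.0 CPM in parental H1975. SDC2 (ENSG00000169439, hg38 chromosome 8, 96493351 to 96611780), a syndecan of mesenchymal and endothelial cells, differed in opposite directions in HCC827 and H1975. It had 11 reads (0.411 CPM) in resistant and 155 reads (5.63 CPM) in parental HCC827, 13.7-fold lower (interval 7.45 to 28.0). In H1975 it had 365 reads (11.97 CPM) in the resistant and 20 reads (0.848 CPM) in the parental library, 14.1-fold higher (interval 9.01 to 23.4). In PC9 it had 2 reads in the resistant and 0 in the parental library, at or under the limit of detection in both. Resistant H1975, with the lowest SDC1, was the library with the highest SDC2, although its SDC2 level per length (8.61 TPM) was below that of SDC1 (31.4 TPM). The summed fibroblast markers were also higher there, at 220.3 CPM in resistant and 92.7 CPM in parental H1975. COL1A1 and COL1A2 gave most of that sum, while PDGFRB was nearly level (4.89 and 4.66 CPM) and PDGFRA had no read. The part of these markers in the SDC2 difference was not tested.

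**Figure D1:**
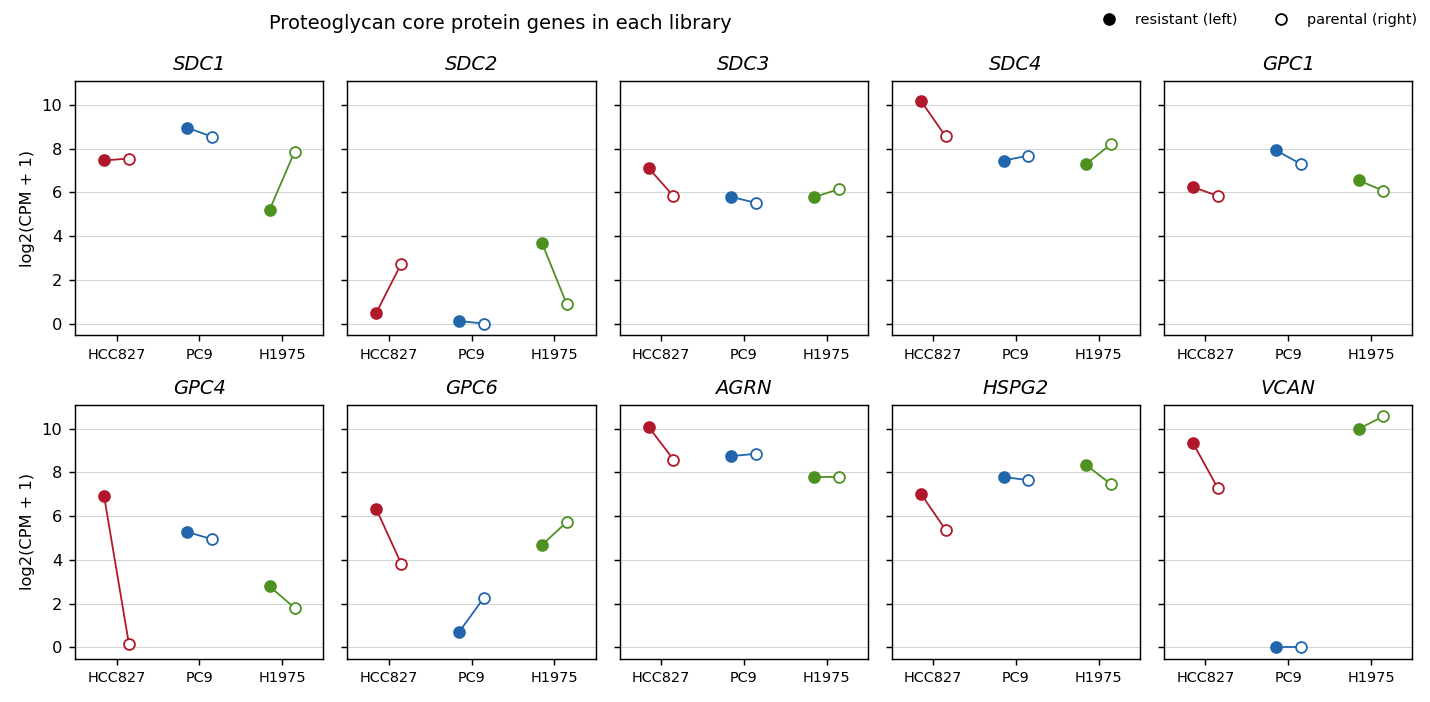
Level of each of the 10 genes as log2(CPM + 1), with filled points for the resistant library and open points for the parental library of each line. GPC4 in HCC827, SDC1 in H1975, SDC2 in HCC827 and H1975, and VCAN, which had no read in either PC9 library, show wide gaps between states or lines.

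Among the glypicans, GPC4 had the largest difference of the 10 genes. GPC4 (ENSG00000076716, hg38 chromosome X, 133300103 to 133415490), a growth factor co-receptor of the glypican family, had 3189 reads (119 CPM) in resistant and 3 reads (0.109 CPM) in parental HCC827. The ratio of 1093 rests on those 3 parental reads and has a 95% counting interval of 374 to 5304. With 1 CPM added its log2 value was 6.76, with 0.1 CPM 9.16 and with 5 CPM 4.60. GPC4 had 37.7 CPM in resistant and 29.9 CPM in parental PC9. It had 5.87 CPM in resistant and 2.5 CPM in parental H1975, below 10 CPM in both. It was thus near the floor in 1 library of the 6, and resistant HCC827 had the highest level. Intron reads of GPC4, which come from unspliced RNA, numbered 46 in resistant and 1 in parental HCC827. Its neighbour GPC3, another glypican, was at most 0.959 CPM in any library, and TFDP3 on the other side had no read.

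GPC6, the closest relative of GPC4 in sequence, was higher in resistant HCC827 and lower in the resistant libraries of the other lines. GPC6 (ENSG00000183098, hg38 chromosome 13, 93226842 to 94407401) had 78.8 CPM in resistant and 13.2 CPM in parental HCC827, 5.97-fold higher (interval 5.34 to 6.70). It had 15 reads (0.626 CPM) in resistant and 79 reads (3.81 CPM) in parental PC9, 6.09-fold lower (interval 3.48 to 11.4). It had 24.6 CPM in resistant and 52.1 CPM in parental H1975, 2.12-fold lower (interval 1.93 to 2.32). GPC5, next to GPC6 on chromosome 13, was at most 0.0834 CPM.

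GPC1 (ENSG00000063660, hg38 chromosome 2, 240435671 to 240468078), the most abundant of the 3 glypicans in 5 of the 6 libraries, differed in 1 direction and by less than 2-fold. It had 74.8 CPM in resistant and 56.1 CPM in parental HCC827, 242 and 157 CPM in resistant and parental PC9, and 92.7 and 66.2 CPM in resistant and parental H1975. The resistant library was 1.33-fold higher in HCC827, 1.54-fold in PC9 and 1.40-fold in H1975. In resistant HCC827, where it was not the most abundant, GPC1 had 40.4 TPM and GPC4 57.1 TPM.

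Of the secreted proteins, agrin had the highest TPM in HCC827 and PC9, and versican in H1975. AGRN (ENSG00000188157, hg38 chromosome 1, 1020123 to 1056118), a basement membrane protein that signals through LRP4 at the neuromuscular synapse and binds dystroglycan, had 1085 CPM in resistant and 384 CPM in parental HCC827. That was a 2.83-fold difference (interval 2.76 to 2.89). It had 428 CPM in resistant and 461 CPM in parental PC9, and 221 CPM in resistant and 220 CPM in parental H1975. The sign of the H1975 difference (log2 ratio 0.01) turned under scaling by library size alone (−0.065) and in TPM (−0.091).

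HSPG2 (ENSG00000142798, hg38 chromosome 1, 21822245 to 21937297) encodes perlecan, a large heparan sulfate proteoglycan of basement membranes. It had 130 CPM in resistant and 40.2 CPM in parental HCC827, 3.22-fold higher (interval 3.01 to 3.45). It had 220 CPM in resistant and 199 CPM in parental PC9, and 321 CPM in resistant and 174 CPM in parental H1975, 1.85-fold higher (interval 1.78 to 1.92). Of its exon reads 81.9% to 92.8% mapped uniquely, depending on the library; for the other 9 genes every read did. With unique reads alone its log2 ratios were 1.71, 0.12 and 0.89 in HCC827, PC9 and H1975, and with all reads 1.66, 0.15 and 0.88.

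VCAN (ENSG00000038427, hg38 chromosome 5, 83471465 to 83582303), the hyaluronan-binding proteoglycan versican, had no read in either PC9 library. It had 645 CPM in resistant and 153 CPM in parental HCC827, 4.21-fold higher (interval 4.08 to 4.36), and 1015 CPM in resistant and 1514 CPM in parental H1975, 1.49-fold lower (interval 1.47 to 1.51). Versican was thus high in both H1975 libraries, whichever the state. HAPLN1, the link protein gene next to VCAN, was at most 0.0748 CPM in any library.

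**Figure D2:**
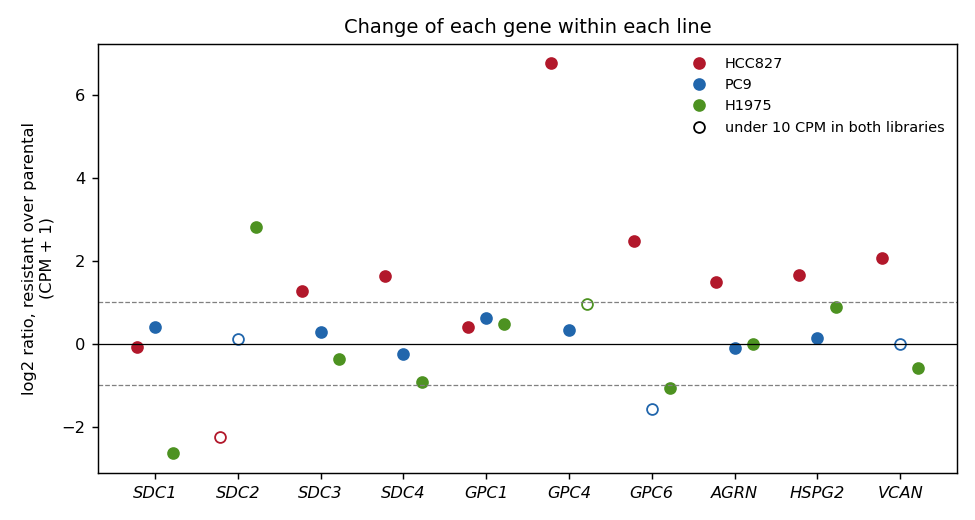
Log2 ratio of resistant over parental CPM, with 1 CPM added to each, for each gene in each line; dashed lines mark 2-fold, and open points are genes under 10 CPM in both libraries of the line. In HCC827, 7 of the filled points lie above the upper line. In PC9 no filled point lies beyond either line, while the open point of GPC6 lies below the lower one.

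By line, the most members past 2-fold were in HCC827. There 7 of the 9 members with at least 10 CPM in 1 library (SDC3, SDC4, GPC4, GPC6, AGRN, HSPG2 and VCAN) were at least 2-fold higher in the resistant library and 0 lower; over all genes at this level 10.5% were higher and 7.66% lower. The median log2 ratio of the 9 was 1.63, against −0.01 over 10290 genes. The members were chosen with earlier results of these data known, so the shares here describe them and are no independent comparison. Mitochondrial genes took 6.62% of exon reads in resistant and 3.32% in parental HCC827, the lowest share of the 6 libraries, the other 4 of which lay between 4.67% and 6.86%. The part of this in the HCC827 differences was not tested. In PC9, 0 of 7 members were at least 2-fold higher (background 2.41%) and 0 lower (background 1.7%), and their median was 0.28, against −0.02 over 9901 genes. In H1975, 1 of 9 was at least 2-fold higher (SDC2; background 1.75%) and 2 were lower (SDC1 and GPC6; background 3.22%). In TPM, 3 were lower, with SDC4 at a log2 ratio of −1.02. The median of the 9 in CPM was −0.37, against 0.05 over 9937 genes.

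In TPM, the 10 genes together made up 1815 in resistant and 713 in parental HCC827, 876 and 781 in resistant and parental PC9, and 707 and 1194 in resistant and parental H1975. SDC4 alone made up 58.5% of the sum in resistant and 50.7% in parental HCC827. In PC9 SDC1 was the highest of the 10 genes, with 41.0% in the resistant and 35.1% in the parental library. In H1975 VCAN was the highest, with 33.0% in the resistant and 31.2% in the parental library. The syndecans summed to 246 TPM in resistant and 618 TPM in parental H1975, and to 1230 TPM in resistant and 520 TPM in parental HCC827. The glypicans summed to 126 TPM in resistant and 37.2 TPM in parental HCC827, 158 and 108 TPM in resistant and parental PC9, and 79.0 and 76.7 TPM in resistant and parental H1975.

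**Figure D3:**
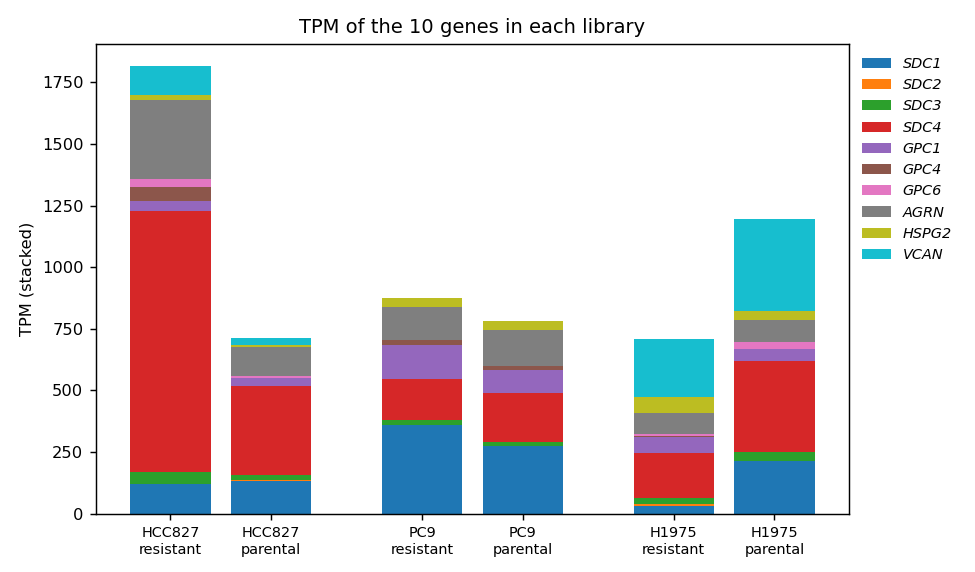
TPM of the 10 genes stacked for each library, with the resistant library left of the parental one in each line. The bar of resistant HCC827 is the tallest, at 1815 TPM with 1061 TPM from SDC4, and that of resistant H1975 the shortest, at 707 TPM.

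Intron reads gave a second readout of the same genes. In HCC827, all 8 members with at least 20 intron reads in both libraries had a lower fold in introns than in exons, as did 59.6% of all genes with that many reads. VCAN was nearly equal, 4.03-fold higher in introns (interval 3.40 to 4.81) and 4.21-fold in exons. SDC4 was 1.84-fold higher in introns (1.53 to 2.20), GPC6 1.72-fold (1.43 to 2.08) and AGRN 1.23-fold (1.09 to 1.37). For HSPG2 the directions were opposite, with 43 intron reads in resistant and 80 in parental HCC827 (a fold of 0.553, interval 0.372 to 0.811), against 3.22 in exons. A lower fold in introns than in exons was common in that pair of libraries. It was seen in 84.9% of the 734 genes with the same read minimum that were at least 2-fold higher in exons, with a median log2 gap of −0.55.

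In H1975, 2 of 8 members had a lower fold in introns than in exons, as did 40.7% of genes. SDC1 had 44 intron reads in resistant and 194 in parental H1975, a fold of 0.175 (interval 0.123 to 0.244), against 0.157 in exons. HSPG2 was 2.75-fold higher in introns (interval 2.28 to 3.35) and 1.85-fold in exons. AGRN, level in exons, was 1.33-fold higher in introns (interval 1.16 to 1.54). In PC9 all 6 members with enough intron reads had a lower fold in introns than in exons, as did 81.1% of all genes with that many reads; all intron reads together were 0.814 of the parental level there, and 1.02 in HCC827 and 1.03 in H1975.

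**Figure D4:**
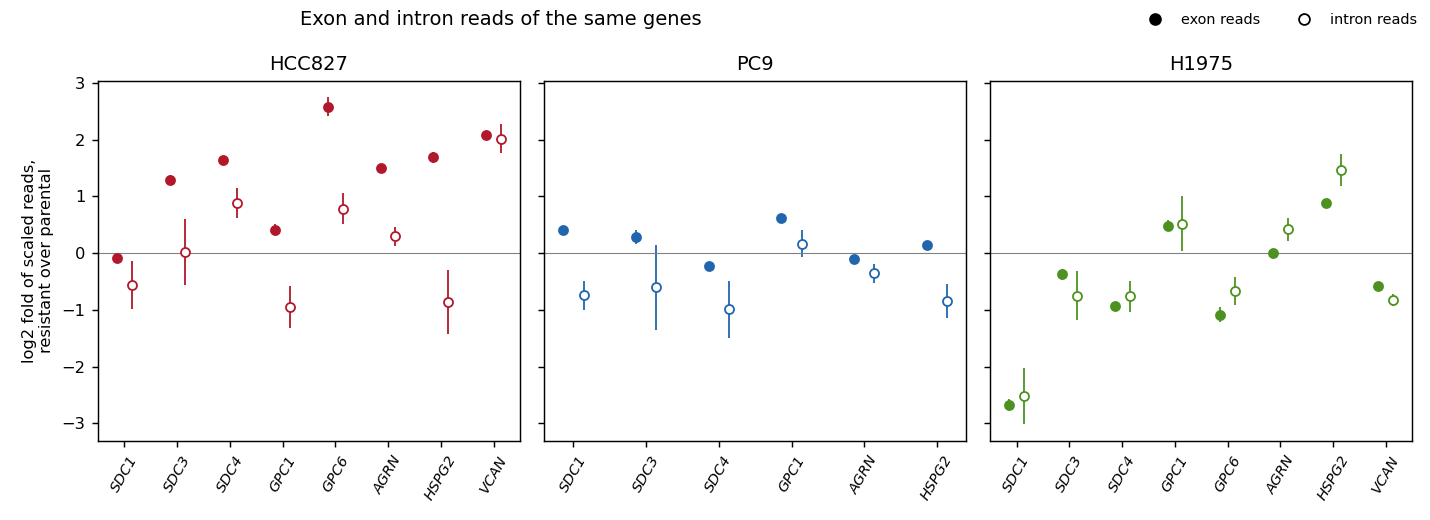
Log2 fold of resistant over parental for exon reads (filled) and intron reads (open), scaled alike, for the members with at least 20 intron reads in both libraries of a line; bars are 95% counting intervals. In HCC827 the open points lie below the filled ones, least so for VCAN, and in H1975 the SDC1 points lie together far below 0.

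All 3 lines were then fitted together, which addresses whether any of these genes differs between resistant and parental cells regardless of line and drug. GPC1, GPC4 and HSPG2 were higher in the resistant library of all 3 lines, 3 of 10 members where 14.3% of 13541 genes were, and 0 were lower in all 3, where 13.5% were. None passed the quasi-likelihood test of edgeR, which called 0 genes (0.0%). GPC1 had a fitted log2 fold change of 0.51 ± 0.16 (SE over 3 lines; edgeR adjusted p = 0.903) and HSPG2 0.91 ± 0.34 (edgeR adjusted p = 0.903). They were the 2 members with an unadjusted edgeR p under 0.05, a set of 502 genes (3.71%). DESeq2 gave GPC1 an adjusted p of 0.389 and HSPG2 one of 0.452, and called 58 genes (0.446%), none of them a member. Without adjustment, 924 genes (6.82%) had a p under 0.05 in DESeq2. The like number in limma-voom, which called 0 after adjustment, was 763 (5.63%).

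The other 8 members had unadjusted p-values above 0.05 in edgeR. GPC4 had 2.40 ± 1.95, and its fitted value was 0.75 without HCC827, 4.93 without PC9 and 4.36 without H1975. SDC1 had −0.72 ± 0.69, which became 0.18 without H1975 and −1.39 without PC9. SDC4 had 0.13 ± 0.55 and SDC3 0.40 ± 0.36. Without HCC827 these became −0.58 for SDC4 and −0.052 for SDC3. AGRN had 0.46 ± 0.39, VCAN 0.74 ± 0.79, GPC6 −0.39 ± 1.14 and SDC2 0.85 ± 2.48. The SDC2 value was 3.80 without HCC827 and 0.082 without PC9, and SDC2 had no fit without H1975. The GPC6 value was 0.73 without PC9 and −1.70 without HCC827. Without HCC827, AGRN had −0.055 and VCAN −0.60. The value of VCAN rests on HCC827 and H1975, since PC9 has no reads of it. That of SDC2 rests mainly on the same lines, with 2 reads in resistant and 0 in parental PC9. The lines are the replicates, so these p-values measure the spread between 3 cell lines.

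The change in the gefitinib-selected lines was then set against the change in osimertinib-selected H1975. SDC1 was the 1 member called by any tool. Its fitted difference (gefitinib minus osimertinib) was 2.84 ± 0.49 on the log2 scale, with an edgeR adjusted p of 1.00. DESeq2 gave 2.86 ± 0.62 and an adjusted p of 0.00197, and so called SDC1 among 72 genes (0.532%); edgeR and limma-voom each called 0. Before adjustment, 434 genes (3.21%) passed 0.05 in edgeR, 495 (3.66%) in DESeq2 and 494 (3.65%) in limma-voom. SDC3 was the 1 member higher in both gefitinib-selected lines and lower in H1975, a pattern that 12.4% of genes showed. VCAN had a fitted difference of 2.63 in edgeR and 2.03 in DESeq2. PC9 had no read of VCAN, so these values compare HCC827 alone with H1975. No spread between gefitinib-selected lines can be estimated for this gene, and only the size of the difference is given. For SDC2 the fitted difference was −6.12 in edgeR. PC9 had 2 reads of SDC2 in the resistant and 0 in the parental library. The SDC2 value thus compares mainly HCC827 with H1975, and only its size is given. SDC4 had 1.63 ± 0.91, SDC3 1.16 ± 0.59, AGRN 0.69 ± 0.82, GPC4 3.13 ± 4.65 and GPC6 1.31 ± 2.31, each with an adjusted edgeR p of 1.00. GPC1 had 0.03 ± 0.41 and HSPG2 0.03 ± 0.77. This fit leaves 1 residual degree of freedom. Only H1975 was selected with osimertinib, so effects of drug, EGFR mutation and line cannot be told apart.

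The genes that build, sulfate, cut and bind proteoglycans were described in 8 lists of 161 genes. No listed gene passed in edgeR (0 of 113 measured) in either comparison. For the gefitinib-selected lines against H1975, DESeq2 called 3 of the 113, beside 0.532% of all genes, and they are named here because of that call. SPOCK1, a secreted testican, had log2 ratios of 2.72, 2.24 and −0.43 (HCC827, PC9, H1975; DESeq2 adjusted p = 0.00429), and FBN1, the versican-binding fibrillin, 4.43, 2.14 and −0.76 (adjusted p = 0.0282). LAMA3, a laminin chain of epithelial basement membrane, had 123 CPM in resistant and 83.3 CPM in parental HCC827, 988 and 557 CPM in resistant and parental PC9, and 4.88 and 63.8 CPM in resistant and parental H1975 (DESeq2 adjusted p = 1.45e-09). The lists are given by the number of measured genes that lay on 1 side in all 3 lines, and by 2-fold differences within a line. Over all 13541 genes, 14.3% were higher and 13.5% lower in all 3 lines, and the list counts that follow are to be read beside those shares.

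Of 14 other core proteins measured, 3 were higher and 2 lower in all 3 resistant libraries. The hyaluronan receptor CD44 had a log2 ratio of 0.98 for HCC827, 0.35 for PC9 and 0.42 for H1975, the order of lines kept from here on. COL18A1, a collagen with heparan sulfate chains, had 3.45, 0.20 and 0.90; 69.7% of its reads mapped uniquely. Of 16 genes of the linker and heparan sulfate chain, 3 were higher and 1 lower in all 3: PAPSS2, which makes the sulfate donor, had 0.61, 0.63 and 0.24, B3GALT6, a linker galactosyltransferase, 0.45, 0.21 and 0.27, and the chain polymerase EXT2 0.53, 0.01 and 0.29. UGDH, which makes the sugar donor glucuronate, was lower, at −1.12, −0.002 and −0.03.

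Of 9 heparan sulfate modifying genes, 1 was higher and 1 lower in all 3. HS3ST1, the 3-O-sulfotransferase of the anticoagulant site, was lower in all 3 lines, with log2 ratios of −1.65, −0.88 and −1.21. Its levels were low in H1975 (0.656 CPM in resistant, 2.84 CPM in parental) and HCC827 (2.77 and 10.8 CPM). For HS3ST1 edgeR gave an adjusted p of 0.903 and DESeq2 one of 0.0303, where DESeq2 called 0.446% of all genes. NDST2, an N-sulfotransferase, had 0.50, 0.26 and 0.12; only 15.4% of its reads were unique, so these values are uncertain. SULF2, an extracellular sulfatase, did not pass the filter over all libraries, but had 135 CPM in resistant and 259 CPM in parental PC9. By count, chondroitin and dermatan sulfate genes were the list with the most 2-fold higher genes in HCC827. There 6 of 12 were at least 2-fold higher and 0 lower in the resistant library, where 10.5% of all genes were higher and 7.66% lower. The share was no smaller in 2 other lists: 3 of 4 other core proteins and 3 of 6 versican and hyaluronan partners were 2-fold higher there. Among the 6 chondroitin and dermatan sulfate genes, DSE had 13.6% of its reads unique, so its value is uncertain. In PC9 0 of 12 passed in either direction, and in H1975 1 of 13 did, lower. The initiating enzyme CSGALNACT2 had 1.497, 0.17 and 0.30.

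Of 23 genes of shedding and breakdown, 5 were higher and 1 lower in all 3. MMP14, a membrane metalloproteinase that cuts SDC1, had log2 ratios of 0.21, 0.65 and 0.79, and reached 309 CPM in resistant and 178 CPM in parental H1975. In HCC827 MMP14 had only 1.05 CPM in the resistant and 0.76 CPM in the parental library, so its direction there rests on few reads. The heparan sulfate sulfatase of lysosomes SGSH had 0.60, 1.02 and 0.44, and BMP1, a tolloid protease, 0.88, 0.62 and 0.15. GUSB, the lysosomal glucuronidase, had −0.24, −0.59 and −0.08. Of 11 syndecan cytoplasmic partners, 1 was higher (the GTPase RHOG at 0.09, 0.15 and 0.24) and 4 were lower, beside 14.3% and 13.5% of all genes. TIAM1, an exchange factor for RAC1 that binds the SDC1 tail, had −0.73, −0.53 and −0.61, GIPC1, which binds the SDC4 tail, −0.44, −0.24 and −0.22, and PDCD6IP, which joins syndecans to exosome formation, −0.13, −0.19 and −0.31.

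Of 11 versican and hyaluronan partners, 2 were higher and 2 lower in all 3 lines. TLR2 had log2 ratios of 0.35, 0.41 and 1.18, and FBLN2, a fibulin that binds versican, 3.30, 0.08 and 1.06. FBLN2 had only 0.209 CPM in resistant and 0.145 CPM in parental PC9, and TLR2 0.411 and 0.109 CPM in resistant and parental HCC827. Their direction in those lines thus rests on few reads. The hyaluronan synthase HAS3 had −0.44, −0.08 and −1.34, and the hyaluronan receptor HMMR, which is also a mitotic protein, −0.91, −0.25 and −0.72. Of 14 agrin and perlecan partners, 2 were higher and 2 lower. ECM1 had 3.04, 1.44 and 0.34, the laminin chain LAMC1 1.07, 0.20 and 0.49, and the collagen receptor subunit ITGA2 −2.78, −0.18 and −0.68. LRP4, the agrin receptor, was low throughout, at 1.08 CPM in resistant and 5.09 CPM in parental HCC827, 7.13 and 7.90 CPM in resistant and parental PC9, and 2.36 and 6.70 CPM in resistant and parental H1975.

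**Figure D5:**
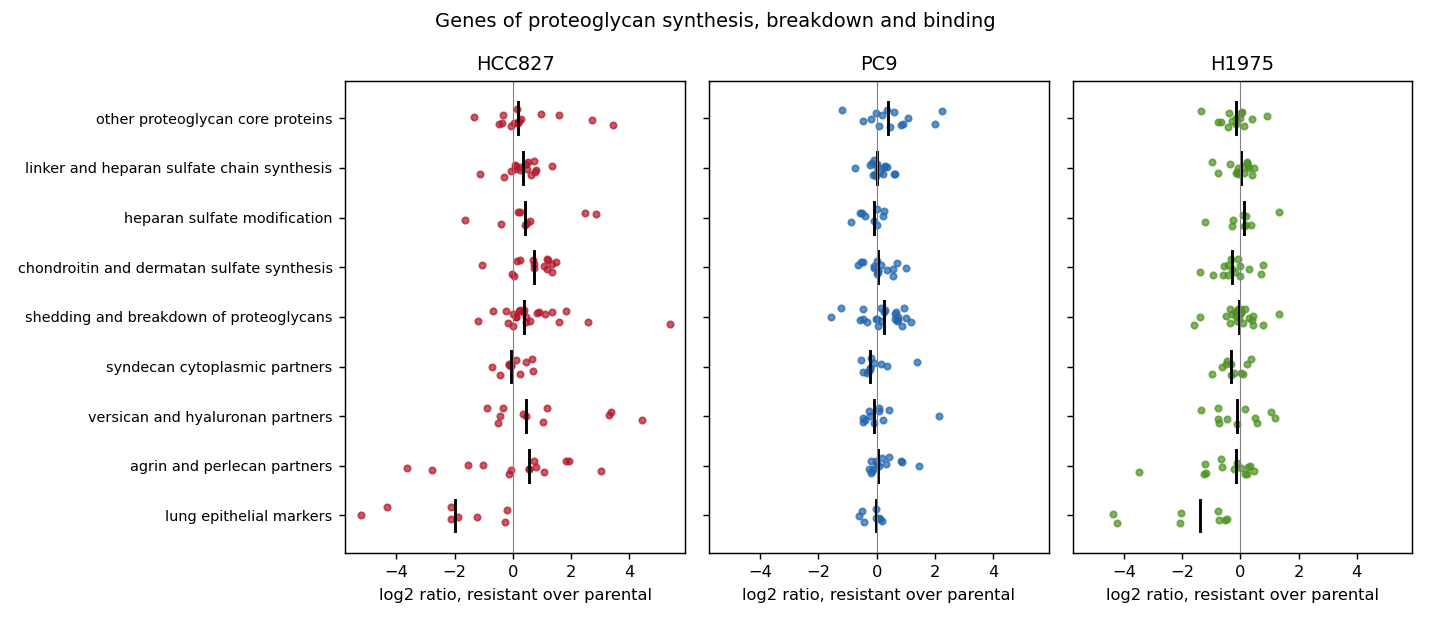
Log2 ratio of resistant over parental for each measured gene of the 8 lists and of the lung epithelial markers, by line; black bars are list medians. The chondroitin and dermatan sulfate genes have a median of 0.74 for HCC827, 0.06 for PC9 and −0.27 for H1975, and the epithelial markers −1.999, −0.03 and −1.39.

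Genes with the most similar pattern over the 6 libraries were found by Pearson's r of log2(CPM + 1) among 11467 genes. Such an r compares the shape of the pattern, not the level or the size of the change. It is a description only: the 2 libraries of a line share their cells of origin, and 6 points allow high values for many genes. For SDC1 they were the kinase RPS6KA6 (r = 0.986) and the hexokinase-like HKDC1 (r = 0.974), and 13 genes were over 0.95. For GPC4 they were SH3BP4 (0.996) and PCCA (0.988), and 25 genes were over 0.95. For GPC6 they were TBL1X (0.990) and EDIL3 (0.988), with 56 genes over 0.95. For SDC2 they were CHMP3 (0.989) and NEURL4 (0.974), with 6 over 0.95. For VCAN, whose pattern follows the lines, they were ZNF772 and the connexin GJA1 (0.9985 each), with 320 genes over 0.95. GJA1 had 79.0 CPM in resistant and 40.0 CPM in parental HCC827, 0.792 and 0.434 CPM in resistant and parental PC9, and 129 and 135 CPM in resistant and parental H1975.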

How the data were processed

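Total RNA of 6 samples was made into stranded mRNA libraries, per the labels' protocols; Trimmomatic, Bowtie2 and hg38 are listed, per the submitters' processing notes, without a role or version. The authors deposited read counts per gene (total exon, unique exon, exon-exon and intron reads, not normalized) and TPM, per the file headers; how reads were counted, on which annotation, and whether strand was used is not given in the sources used here, so reads of overlapping or antisense genes may be shared. The deposited TPM match total exon reads divided by exon length. A further table of the whole series was not used.

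Counts were scaled with TMM factors and tested with the quasi-likelihood test of edgeR 4.0.16 (R 4.3.3), filterByExpr (minimum count 10, minimum total 15), the cell line as a block, and Benjamini-Hochberg adjustment over all genes (threshold 0.05); the resistant and parental libraries of a line pair by their shared cell line. The test was checked on data simulated with less spread between libraries than seen here, so the check does not measure its power on these data. DESeq2 1.42.0 and limma 3.58.1 were alternatives, with other scalings, filters, unique reads, no block and each line left out. Ratios within a line used CPM with 1 added; 2-fold calls needed 10 CPM in 1 library. Named list genes had 10 CPM in 1 library and 1 direction in all 3 lines, up to 3 each way, ranked by the smallest of their 3 absolute log2 ratios. Genes of similar pattern were taken, 2 each, for members at 4-fold or more. LRP4, EPCAM, COL1A1, COL1A2, PDGFRA, SPOCK1, FBN1, LAMA3, HAPLN1, GPC3, GPC5 and TFDP3 were named outside this rule, after their values were seen. Intervals are Clopper-Pearson, 95%. The members and lists were chosen with earlier results of these data known.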

Additional observations from a re-analysis of the deposited data

Results flagged for a closer look

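SDC1 was marked because DESeq2 called the difference between its change in the gefitinib-selected lines and that in H1975, at 2.86 on the log2 scale. Drug, EGFR mutation and line cannot be told apart in that difference. Its log2 ratios were −0.09 in HCC827 and 0.41 in PC9, against −2.64 in H1975. SDC3 was marked because it was higher in both gefitinib-selected lines (1.28 in HCC827, 0.28 in PC9) and lower in H1975 (−0.37). Its fitted difference of 1.16 did not pass in edgeR (adjusted p = 1.00) or DESeq2 (adjusted p = 1.00), and 12.4% of all genes were higher in both gefitinib-selected lines and lower in H1975. With 3 libraries per state, no library was tested as an outlier.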

How the results depend on the processing

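The test over the lines called 0 genes in every setting run except DESeq2, which called 58. For the gefitinib-selected lines against H1975, all settings gave 0 except DESeq2, with 72. Leaving out each line in turn gave 0 to 0 genes over the lines. That could not be done for the gefitinib-selected lines against H1975, where no residual degree of freedom or no osimertinib-selected line would remain. With no replicate block, which ignores the pairing of libraries by line, both counts stayed at 0. The VCAN value over the lines then turned to −0.004 (reported 0.74) and that of GPC6 to 0.59 (reported −0.39). The HSPG2 difference between the gefitinib-selected lines and H1975 turned to −0.34 (reported 0.03). GPC6 also turned with limma-voom (0.51). Leaving out each line in turn gave ranges of −1.39 to 0.18 for SDC1, −0.052 to 0.80 for SDC3, −0.58 to 0.71 for SDC4, −1.70 to 0.73 for GPC6 (0.22 without H1975), −0.055 to 0.74 for AGRN and −0.60 to 2.07 for VCAN. The negative ends came without HCC827 for SDC3, SDC4, GPC6, AGRN and VCAN, and without PC9 for SDC1. GPC1, GPC4 and HSPG2 kept their sign in each. SDC2 kept its sign without HCC827 and without PC9, but had no fit without H1975. Its log2 ratio was 2.81 in H1975 and −2.23 in HCC827, so the positive sign was not checked without the line that carries it. None of these values passed a threshold, and the cause was not tested. With 5 CPM added in place of 1, the members at least 2-fold lower in H1975 numbered 1, and in TPM 3 (reported 2). Of 29 log2 ratios within a line, 28 kept their sign in all 5 alternatives; the exception was AGRN in H1975. With 10 CPM required in 3 or more libraries SDC2 was not tested. Depth limits SDC2 in PC9 and the size of the GPC4 difference in HCC827, which rest on 2 and 3 reads.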
